A study of Homo sapiens with 12 samples.

Results

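The retinal pigment epithelium is known for making melanin and for returning spent retinoid to photoreceptors, and 8 genes of these functions were examined for open chromatin in 2 human cell lines. The genes are RPE65, LRAT and RLBP1 of the visual cycle, TYR, TYRP1 and DCT of melanin synthesis, and BEST1 and TTR, which the epithelium is also known to express. Open chromatin was taken from lists of ATAC-seq peaks, that is, stretches where insertions of the Tn5 transposase pile up over the background. A peak belonged to a gene when it lay in the gene or within 50 kb of either end on hg19, and this gave 88 of the 170706 peaks of the 6 lists. Merging peaks that overlapped by 1 base or more turned the 88 peaks into 42 regions.

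The ARPE-19 line arose spontaneously from human retinal pigment epithelium, and its 3 libraries came from cells grown in DMEM with fetal bovine serum on coated plates. H7 is a line of human embryonic stem cells, and its 3 libraries came from cells kept in mTeSR Plus and passaged with EDTA. Each library was made from 500000 cells, with no modification or treatment named in the labels, and each cell type is represented by 1 line. How long the ARPE-19 cells had been confluent was not given in the sources used here, and as background this line is known to carry little pigment in routine culture. The series was made around the telomerase gene TERT, and its 6 samples of chromosome conformation capture were not analysed here. The ARPE-19 lists held 40110 to 48460 peaks and the H7 lists 8622 to 15351. The genome-wide background, a measure of relative depth in expected reads per position that was recovered from each list, was 0.425 to 0.483 in ARPE-19 and 0.592 to 0.653 in H7. The fewest reads at the summit of any called peak were 4 in every ARPE-19 library and 5 to 6 in the H7 libraries, so a region without a peak is one that was not called at this depth. Because ATAC-seq was run on populations, fewer cells with open chromatin and weaker opening in each cell cannot be told apart. The labels speak of triplicates without naming separate cultures, so each p-value reflects the spread between libraries that may be technical repeats, and with 3 libraries against 3 the exact permutation test cannot go below p = 0.1.

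As background, the visual cycle turns all-trans retinol back into the chromophore that photoreceptors need. LRAT esterifies retinol, RPE65 isomerises the ester, and the protein of RLBP1 binds the product. Melanin synthesis starts with tyrosinase, the product of TYR, and its later steps use the products of TYRP1 and DCT. In pigment cells the factor MITF is known to bind E-boxes with the letters CATGTG before the starts of these 3 genes.

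LRAT was the sole member with a peak at its 5′ end in all 6 libraries. Counting peaks within 1 kb of the 5′ end, 1, 1 and 2 of the 8 members had one in ARPE-19 replicates 1, 2 and 3, and 1 of 8 had one in each H7 library. The second member in ARPE-19 replicate 3 was BEST1. No library of either line had a peak within 1 kb of the 5′ end of RPE65, RLBP1, TYR, TYRP1, DCT or TTR. The share of all gene starts with a peak was not analysed here, so whether 1 of 8 is few for these lists was not tested. The nearest ARPE-19 peak lay 6.27 kb from the start of RPE65, 6.01 kb from that of TYR and 5.49 kb from that of TYRP1. It lay 22.0 kb from the start of RLBP1, 39.2 kb from that of TTR and 60.0 kb from that of DCT. When each list was shortened to its 8622 strongest peaks, LRAT kept its call in H7, with a mean of 1 member per library, and no ARPE-19 library had a member with a peak at the 5′ end.

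The sequence before the LRAT start is shown because this is the start that both lines had open. It is the 250 bases before the RefSeq start of LRAT on GRCh38, plus strand, with every CG in capitals.
LRAT: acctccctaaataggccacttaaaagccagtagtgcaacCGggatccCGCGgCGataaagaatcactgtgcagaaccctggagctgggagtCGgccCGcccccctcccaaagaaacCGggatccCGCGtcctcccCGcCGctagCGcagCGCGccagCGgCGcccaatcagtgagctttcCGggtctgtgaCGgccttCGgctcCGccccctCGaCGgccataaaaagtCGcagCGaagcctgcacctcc
These bases held 24 CG dinucleotides and a GC content of 64.4%, and 23.7% of the 35116 promoters of the RefSeq table had at least as many CG. RPE65 had 0 CG in the same span, TYRP1 had 1, TYR and DCT had 2 each, and RLBP1 had 8, against a median of 11 over the table. At most 2 CG were found in 22.9% of all promoters and 0 in 6.06%. The member with a peak in every library was thus the one with the most CG of the 6 members in the table, a description of 6 promoters with no test. None of the 6 motifs searched on both strands occurred in the LRAT or RPE65 span. They were the E-box CATGTG, the E-box CACGTG bound by the same family, the letters TAATCC of OTX2, the letters TGANTCA of AP-1, the letters GGAATG of TEAD factors and the TATA box written as TATAAA.

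The starts of TYR, TYRP1 and DCT are shown as the contrast, because none had a peak in either line and each holds the E-box of pigment genes. They were chosen for display after the peaks were known. Each is the 250 bases before the RefSeq start on GRCh38, plus strand for TYR and TYRP1 and minus strand for DCT, and capitals mark CATGTG and TAATCC on either strand (CACATG is the first read on the other strand, and GGATTA is the second).
TYR: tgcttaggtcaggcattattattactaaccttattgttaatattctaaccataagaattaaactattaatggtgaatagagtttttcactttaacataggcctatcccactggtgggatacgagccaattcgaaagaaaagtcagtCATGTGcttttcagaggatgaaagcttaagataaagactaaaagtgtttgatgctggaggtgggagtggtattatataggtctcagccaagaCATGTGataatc
TYRP1: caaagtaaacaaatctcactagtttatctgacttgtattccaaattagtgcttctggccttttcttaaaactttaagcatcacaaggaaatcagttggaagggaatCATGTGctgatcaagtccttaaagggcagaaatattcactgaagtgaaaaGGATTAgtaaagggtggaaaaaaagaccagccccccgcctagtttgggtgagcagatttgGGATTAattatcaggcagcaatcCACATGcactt
DCT: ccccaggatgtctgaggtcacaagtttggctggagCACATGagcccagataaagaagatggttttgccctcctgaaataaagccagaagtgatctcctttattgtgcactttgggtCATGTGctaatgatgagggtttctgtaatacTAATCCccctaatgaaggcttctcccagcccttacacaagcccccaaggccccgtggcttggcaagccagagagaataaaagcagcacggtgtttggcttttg
CATGTG occurred at 2 places in each of the 3, with its first base 104 and 12 bases before the start of TYR, 144 and 11 before that of TYRP1, and 215 and 134 before that of DCT. It occurred at least once in 9.42% of all promoters of the table and at least 2 times in 1.15%. RLBP1 held it once, 244 bases before its start. TAATCC, the core letters that the eye factor OTX2 is known to bind, occurred at 2 places in TYRP1 and at 1 place in DCT and in RLBP1, and in 5.62% of all promoters. No match overlapped another motif, and a match of letters is not a bound site. The table lists 2 starts for DCT, and the one shown is that whose distance to the other end of the gene, 42872 bases, is closer to the 42379 bases of the gene on hg19.

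LRAT, which makes the retinyl esters that RPE65 uses, lies at chr4:155665148-155674267 on the plus strand. Its 5′ region spanned chr4:155664843-155665358, across the start. The summit had 9, 6 and 8 reads in ARPE-19 replicates 1, 2 and 3, and 22, 13 and 13 reads in H7 replicates 1, 2 and 3. Every H7 library was above every ARPE-19 library. The summits lay at -62, -45 and -77 bases from the start in ARPE-19 and at 7, -105 and 4 bases in H7. Divided by the background of its library, the summit stood at 18.6, 13.1 and 18.8 times in ARPE-19 and at 33.7, 21.9 and 20.5 times in H7, with means of 16.9 ± 3.24 and 25.4 ± 7.21 (SD, n = 3 each). The log2 ratio of ARPE-19 over H7 was -0.57 (SE 0.28, exact permutation test, two-sided p = 0.1), and without H7 replicate 1 it was -0.35 (exact permutation p = 0.3). The authors' fold, which divides by the local background instead, overlapped between the lines, with 6.19, 4.80 and 5.37 in ARPE-19 and 7.31, 4.85 and 5.38 in H7 (log2 ratio -0.09, exact permutation p = 0.6). The local background at this place was 0.458 to 0.676 reads in ARPE-19 and 1.60 to 2.15 reads in H7, and it can include reads of the region itself. The comparison of levels was chosen after the calls were known.

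Upstream of LRAT, ARPE-19 had a region at chr4:155659529-155659885, centred 5.44 kb before the start, in replicates 2 and 3 with 11 and 9 summit reads. H7 replicate 1 alone had one whose nearest edge was 22936 bases before the start, with 9 reads. In number, the LRAT window held 1, 2 and 3 peaks in ARPE-19 and 2, 1 and 1 in H7, and these overlap (exact permutation p = 0.7). With equal list length the mean was 0 peaks in ARPE-19 and 1.33 in H7, so the order of the lines turned.

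RPE65, the isomerase of the visual cycle, lies at chr1:68894507-68915642 on the minus strand and had the most ARPE-19 peaks of the 8 windows. Its window held 5, 5 and 6 peaks in ARPE-19 and 1, 2 and 1 in H7, a difference of 4 peaks (exact permutation p = 0.1). The groups did not overlap, and the same order held in 44.4% of autosomal tiles of 116 kb with a peak in any library. With equal list length ARPE-19 averaged 2.33 peaks and H7 1.33 (exact permutation p = 0.3). Of its 6 regions, 3 were called in all 3 ARPE-19 libraries but in none of H7, a class called ARPE-19-only here. Of all merged regions 26.0% were of this class.

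The strongest ARPE-19-only region of the RPE65 window, chr1:68850099-68851019, lay 43.9 kb past the 3′ end, on the side of the neighbouring gene WLS. It had 22, 26 and 29 summit reads in ARPE-19 and was 770 to 921 bases wide there. The other 2 lay before the start. The one centred 10.0 kb before it, chr1:68925572-68925782, had 14, 12 and 22 summit reads, and the one centred 6.45 kb before it, chr1:68921915-68922261, had 12, 7 and 9. These are the called regions nearest to the RPE65 start on its upstream side. Inside the gene, 6.64 kb from the start, chr1:68908876-68909128 had 10, 8 and 7 reads in ARPE-19 and 11 reads in H7 replicate 2. The H7 call was as high as the ARPE-19 ones, so this region was not particular to ARPE-19.

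The remaining strong region of the window was called in all 6 libraries and lay 47.3 kb before the RPE65 start, at chr1:68962580-68963247, on the side of the neighbouring gene DEPDC1. It had 23, 30 and 26 summit reads in ARPE-19 and 25, 16 and 17 in H7. Over the background of the library these were 47.6, 65.6 and 61.1 times in ARPE-19 and 38.3, 27.0 and 26.9 times in H7, with means of 58.1 ± 9.33 and 30.7 ± 6.55 (SD, n = 3 each). Here every ARPE-19 library was above every H7 library, the opposite of the order at the LRAT start. The log2 ratio of ARPE-19 over H7 was 0.93 (SE 0.22, exact permutation p = 0.1), and with the authors' fold it was 0.53 (exact permutation p = 0.1). Neither this ratio nor that at the LRAT start was set against the other regions of the genome called in all 6 libraries. A general offset between the lines was thus not tested. Gene models of hg19 were not used here, so to which gene the region belongs was not tested, and it is not credited to RPE65.

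RLBP1, whose product is the retinaldehyde-binding protein, lies at chr15:89753098-89764922 on the minus strand. Its window held 2, 2 and 3 peaks in ARPE-19 and 0, 1 and 0 in H7, a difference of 2 peaks (exact permutation p = 0.1). The groups did not overlap, as in 44.4% of autosomal tiles of 116 kb with a peak in any library. The groups did overlap with equal list length, where ARPE-19 averaged 0.333 peaks and H7 0, and with a minimum -log10 q of 5, where ARPE-19 averaged 0.667 and H7 0 (exact permutation p = 1 in both). None lay in the gene or within 20 kb of it in either line. The 1 ARPE-19-only region, chr15:89786965-89787428, was centred 22.3 kb before the start on the side of the gene FANCI, and had 8, 8 and 19 summit reads. To which gene this region belongs was not tested, and it is not credited to RLBP1. The ARPE-19 peaks on the other side lay 41.9 to 46.5 kb past the 3′ end, with 5 to 10 reads. Among them, chr15:89710967-89711103 was called in replicate 2 and chr15:89711115-89711322 in replicates 1 and 3. These stand side by side without overlap, so they count as separate regions and neither is ARPE-19-only. The 1 H7 peak was 31.8 kb past the 3′ end, with 6 reads. The difference in number thus rests on peaks far from the gene.

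**Figure D1:**
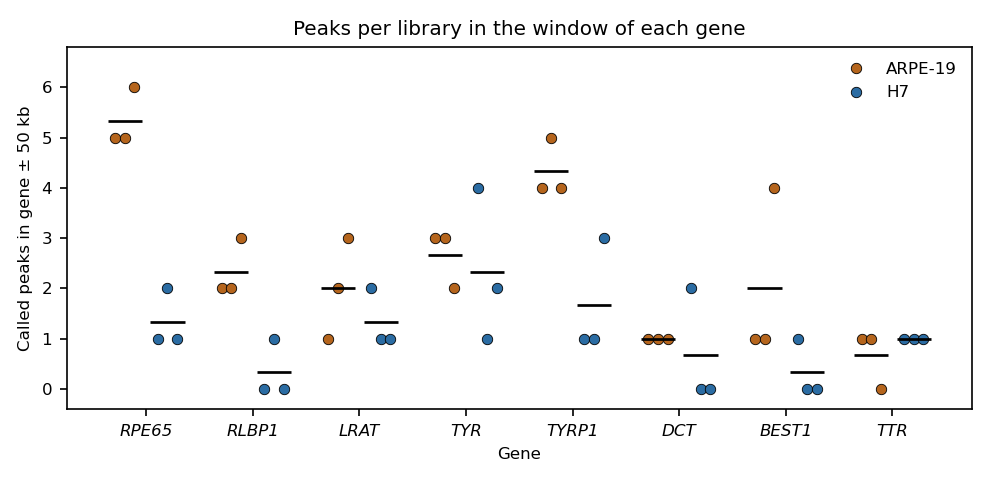
Number of called peaks (y axis) within 50 kb of each gene (x axis) in the 3 ARPE-19 and 3 H7 libraries. Each point is a library and each bar the mean of 3. Every ARPE-19 library is above every H7 library at RPE65, RLBP1 and TYRP1, 37.5% of the windows, beside 44.4% of autosomal tiles of 116 kb with a peak. The lines overlap at the other 5 genes.

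TYR encodes tyrosinase, the enzyme that limits melanin synthesis, and lies at chr11:88911040-89028927 on the plus strand. Both lines had open regions in TYR. Of the 7 regions of its window 0 had peaks of both lines, beside 8.51% of all merged regions. These are too few regions to read the count as a trait of TYR. The strongest region of all the ARPE-19-only ones lay inside the gene, chr11:88917047-88917691, centred 6.33 kb after the start. It had 22, 31 and 29 summit reads in ARPE-19, with the authors' folds of 9.47, 15.0 and 13.7, and no H7 peak. Another ARPE-19-only region, chr11:89073674-89074027, lay 44.9 kb past the 3′ end towards NOX4, with 9, 6 and 16 reads. Whether the first lies in an exon or an intron was not analysed here.

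H7 had its own regions in the TYR gene body. The H7-only region, called in all 3 H7 libraries but in none of ARPE-19, was chr11:89027271-89027688, near the 3′ end and 116 kb from the start. It had 9, 10 and 13 summit reads in H7, fewer than the TYR region of ARPE-19. Another, chr11:88953972-88954270, was called in H7 replicates 1 and 3 with 13 and 7 reads, and one more, 26.2 kb from the start, in H7 replicate 1 with 9. Within the gene body there was a mean of 1 peak in ARPE-19 and of 2 in H7. Over the whole TYR window the numbers overlapped, with 3, 3 and 2 peaks in ARPE-19 and 4, 1 and 2 in H7 (exact permutation p = 1). The difference, 0.333 peaks, turned to -0.333 without H7 replicate 2.

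TYRP1 encodes an enzyme of the later steps of brown and black melanin and lies at chr9:12693386-12710266 on the plus strand. Of the 8 regions of its window 4 were ARPE-19-only, the most of any window, beside 26.0% of all merged regions. These are too few regions to read the count as a trait of TYRP1. The window held 4, 5 and 4 peaks in ARPE-19 and 1, 1 and 3 in H7 (difference 2.67 peaks, exact permutation p = 0.1). The groups did not overlap, as in 44.4% of autosomal tiles of 116 kb with a peak in any library. With equal list length ARPE-19 averaged 1 peak and H7 1.67, the other way round (exact permutation p = 0.7). A pair of ARPE-19-only regions stood before the start. The one centred 8.28 kb before it, chr9:12684949-12685258, had 23, 17 and 24 summit reads, and the one centred 12.7 kb before it, chr9:12680380-12681014, had 13, 14 and 18. A further one, chr9:12708374-12708856, lay inside the gene near its 3′ end with 13, 7 and 15 reads. The last, chr9:12748094-12748345, lay 38.0 kb past the 3′ end with 12, 6 and 11.

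TYRP1 also had the other H7-only region of the 8 windows, chr9:12718545-12718961, 8.49 kb past the 3′ end. It had 10, 10 and 9 summit reads in H7 and no ARPE-19 peak. H7 replicate 3 had 2 more peaks, 26.3 kb before the start with 9 reads and inside the gene with 7. Each of these was called in that library alone.

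DCT encodes dopachrome tautomerase and lies at chr13:95089558-95131936 on the minus strand. It was the barest of the melanin genes, with no peak in the gene body in any library. Its window held 1 peak in each ARPE-19 library and 2, 0 and 0 peaks in H7 (exact permutation p = 1). With a minimum -log10 q of 5, or with a flank of 20 kb, ARPE-19 averaged 1 peak and H7 0 (exact permutation p = 0.1 in both). With equal list length the means were 0.667 in ARPE-19 and 0.333 in H7. The ARPE-19 peaks fell on 1 region, chr13:95071578-95071954, 17.8 kb past the 3′ end towards GPC6, with 17, 16 and 20 summit reads. The 2 peaks of H7 replicate 1 had 10 and 6 reads, the first 20.7 kb past the 3′ end and the second 20.4 kb before the start.

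The 3 melanin genes together had 9 regions with an ARPE-19 peak and 9 with an H7 peak. Of these 18 regions 0 had peaks of both lines, beside 8.51% of all merged regions. These are too few regions to read the count as a trait of the 3 genes, and it was not tested. Of all merged regions with an H7 peak, 27.7% also had an ARPE-19 peak, and of those with an ARPE-19 peak 10.9% also had an H7 peak. Over the 8 windows 4 of the 17 H7 regions, 23.5%, and 4 of the 29 ARPE-19 regions, 13.8%, were shared, close to those shares. The 4 shared regions were 9.52% of the 42, beside 8.51% of all merged regions. The shared regions were the pair in the RPE65 window, the LRAT start and 1 region past BEST1.

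**Figure D2:**
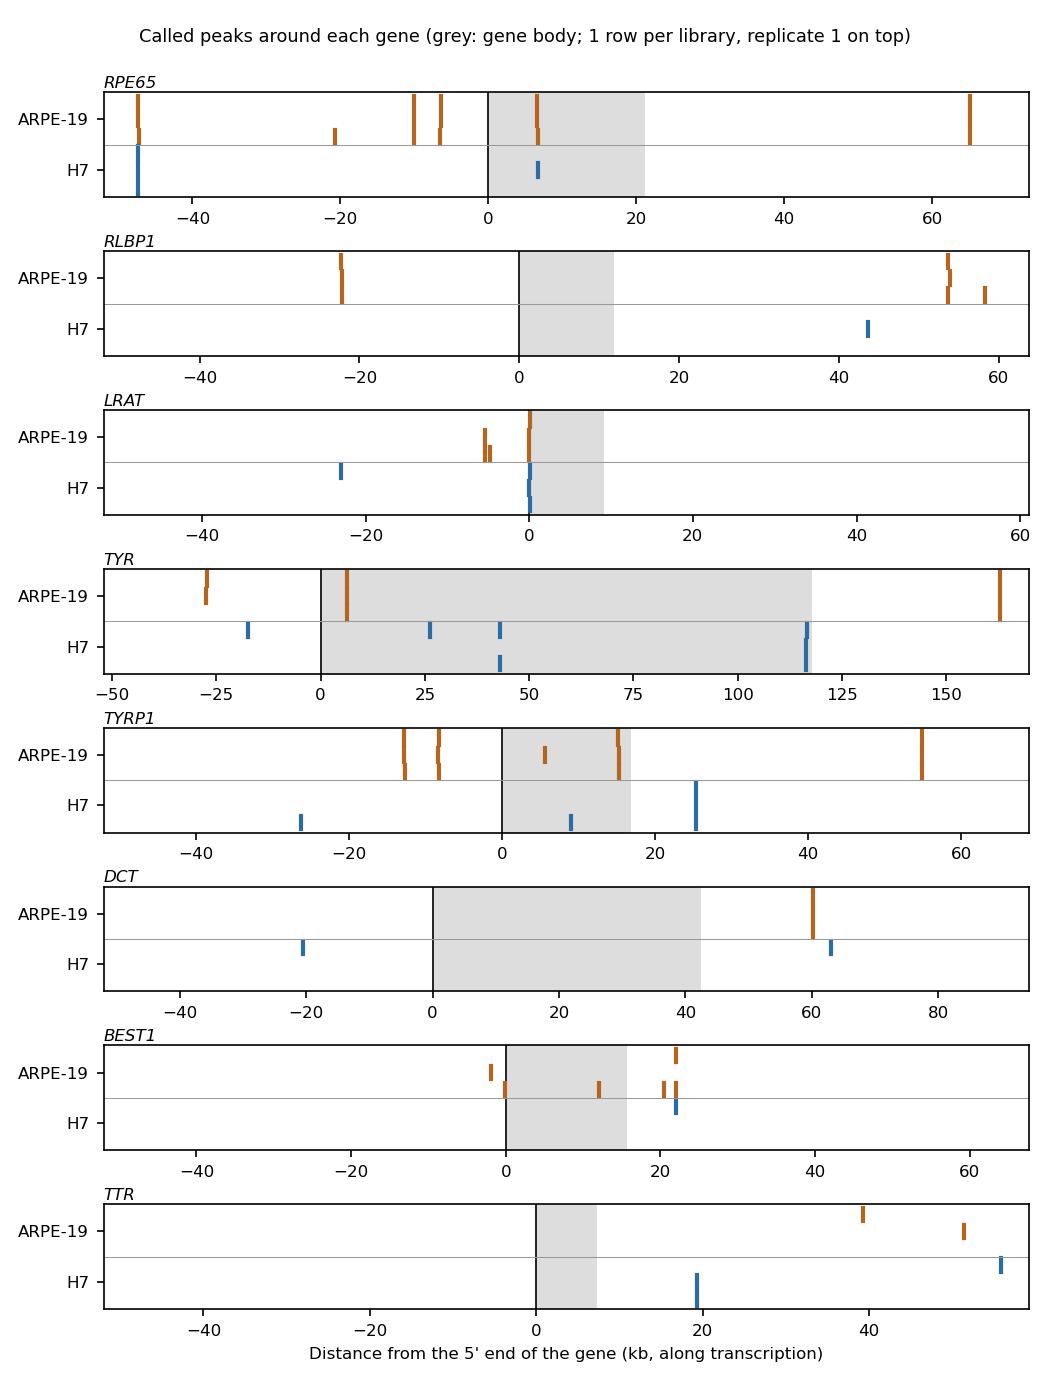
Position of each called peak along the 8 genes, as distance from the 5′ end in kb in the direction of transcription (x axis). Each panel has 1 row per library, with ARPE-19 replicates 1 to 3 above H7 replicates 1 to 3, and grey marks the gene body. At the 0 line only LRAT has ticks in all 6 rows. In the TYR, TYRP1 and DCT panels no tick of one line stands under one of the other. These panels hold 18 regions, too few to read this as a trait of the genes.

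BEST1 encodes bestrophin, a chloride channel of the epithelium, and lies at chr11:61717293-61732987 on the plus strand. Its window held 1, 1 and 4 peaks in ARPE-19 and 1, 0 and 0 in H7 (exact permutation p = 0.3), and the number in ARPE-19 rests on replicate 3. Without that library the difference of 1.67 peaks was 0.667. The peak at the start, chr11:61717108-61717282, was called in ARPE-19 replicate 3 alone, with 6 summit reads and the authors' fold of 4.21. Replicate 3 also had the 1 peak inside the gene, chr11:61729191-61729385, with 15 reads. The region with the most reads in sum, chr11:61739081-61739562, lay 6.33 kb past the 3′ end on the side of FTH1 and was called in ARPE-19 replicates 1 and 3 with 10 and 13 reads and in H7 replicate 1 with 9. No region of the BEST1 window was called in all 3 libraries of a line.

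TTR encodes transthyretin, a carrier of thyroxine that also travels with retinol-binding protein, and lies at chr18:29171730-29178987 on the plus strand. No peak of either line lay in the gene or before its start. The window held 1, 1 and 0 peaks in ARPE-19 and 1 in each H7 library (difference -0.333 peaks, exact permutation p = 1). Its region with the most reads, chr18:29190930-29191168, was 12.1 kb past the 3′ end and had 9 and 8 reads in H7 replicates 2 and 3. The ARPE-19 peaks, with 5 and 6 reads, were each called in 1 library. At these counts the TTR window showed nothing that recurred in all 3 libraries of a line.

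**Figure D3:**
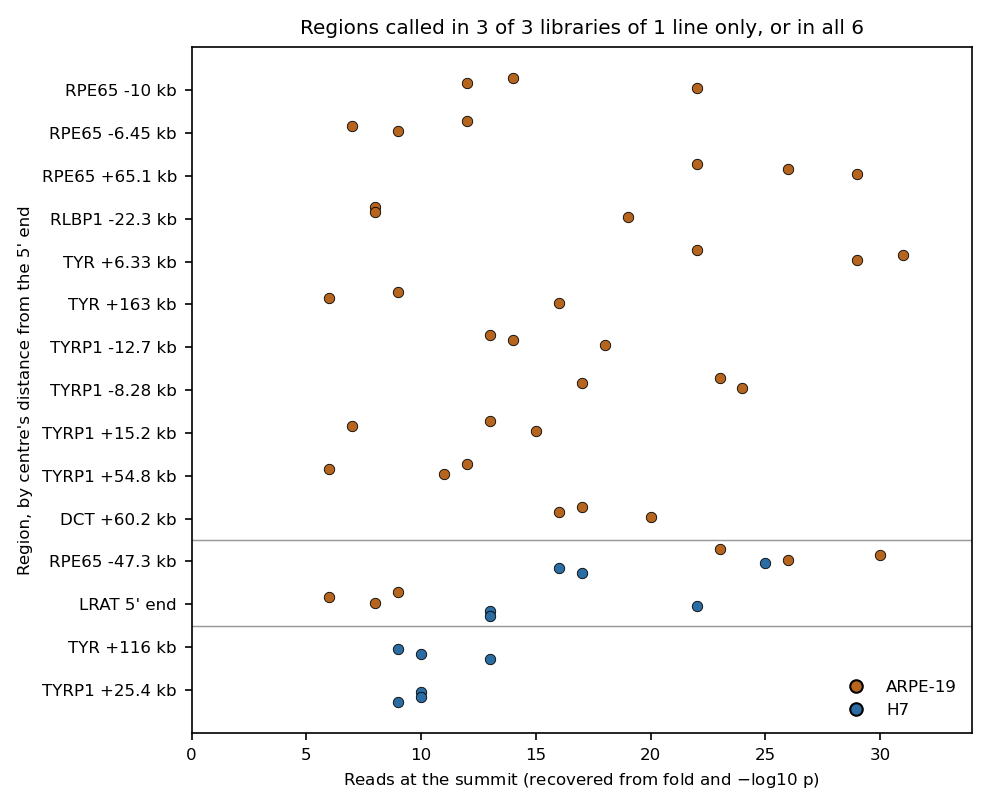
Reads at the summit (x axis) of the 15 regions that were called in 3 of 3 libraries of 1 line only or in all 6 libraries, named by gene and by distance of the centre from the 5′ end (y axis). Each point is a library. The 11 ARPE-19-only regions reach 31 reads, in TYR, and the 2 H7-only regions stay at 9 to 13.

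Over the 8 windows the ARPE-19 libraries had 18, 20 and 23 peaks and the H7 libraries 12, 7 and 8, with means of 20.3 ± 2.52 and 9 ± 2.65 (SD, n = 3 each). The visual cycle genes held 8, 9 and 12 of these in ARPE-19 and 3, 4 and 2 in H7. At RPE65, RLBP1 and LRAT the ARPE-19 means at equal list length were 2.33, 0.333 and 0, against 1.33, 0 and 1.33 in H7. The order of the lines thus differed between these genes. How often the lines separate over 3 windows summed was not analysed here for the genome. The melanin genes held 8, 9 and 7 in ARPE-19 and 7, 2 and 5 in H7, so that the lines overlapped there. The lists differ in length, and the ratio of 2.26 in the windows was smaller than the ratio of 3.53 between whole lists. As a share of its own list, the windows held 0.0405%, 0.0499% and 0.0475% of the ARPE-19 peaks and 0.0782%, 0.0511% and 0.0928% of the H7 peaks, so every H7 library was above every ARPE-19 library. With 8622 peaks from each library the mean number was 5.67 in ARPE-19 and 7.33 in H7. At equal list length the higher number of ARPE-19 peaks was thus not seen.

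Set against the genome, the pigment and visual cycle windows were near the average density for ARPE-19 and above it for H7, a comparison that was not tested. The density was 19.5 ± 2.41 peaks per Mb for ARPE-19 and 8.64 ± 2.54 for H7 (SD, n = 3 each). Autosomal tiles of 116 kb with a peak in any library gave 18.0 ± 1.69 per Mb for ARPE-19 and 5.04 ± 1.40 for H7. In 3 of the 8 windows, 37.5%, every ARPE-19 library had more peaks than every H7 library, and the same held for 44.4% of the 20605 tiles. The reverse held for 0 of the 8 windows and for 2.15% of the tiles. Of the 42 regions 11 were ARPE-19-only, 26.2%, beside 26.0% of all merged regions, so this count was at the background. H7-only regions were 2 of 42, beside 1.82% of all regions, and regions in all 6 libraries were also 2 of 42, beside 1.82%. Regions called in 1 library were 20 of 42, or 47.6%, beside 46.4%.

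The classes differed in strength, which the demand for 3 calls selects in part. The 33 calls in ARPE-19-only regions had 6 to 31 summit reads with a median of 15, and the 6 calls in H7-only regions had 9 to 13 with a median of 10. The 12 calls in the 2 regions of all 6 libraries had 6 to 30 with a median of 16.5. The 37 calls of the 27 regions in no class had 4 to 15 with a median of 8. Of the ARPE-19-only regions 5 lay before a start, 2 in a gene body and 4 past a 3′ end. Outside the genes were thus 9 of 11, or 81.8%, near the 32 of 42, or 76.2%, of all regions of the windows. The widest of the 9 was 921 bases, the one past RPE65.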

How the data were processed

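ATAC-seq peaks of 3 ARPE-19 and 3 H7 libraries were used, 1 deposited list per library, called per library on hg19; MACS2 and bedtools were used, per the submitters' processing notes, with no versions. Not given in the sources used here are the aligner and the handling of duplicates and of the transposase offset; without that offset, summits would shift by a few bases. The deposited fold is the ratio of summit reads to local background, and the deposited score is 10 times -log10 q. Both the deposited -log10 p and its adjusted form, -log10 q, belong to that within-library test; no q exceeded 0.05. These are the authors' values per peak. No read totals were in the lists, so absolute depth is unknown.

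Summit reads n and background b were solved from the fold, (n + 1)/(b + 1), and the Poisson p, within 0.001 on -log10 p; the most frequent b was the background of the library. Reads may include duplicates, and counting error limits a peak of 4 reads. Groups were compared by exact permutation (two-sided, 20 assignments), one gene at a time; p-values were not adjusted over the 8 genes. Promoters came from RefSeq (GRCh38.p14) by symbol for 6 of the 8 genes, with no coordinates carried between builds. Strand came from that table and for BEST1 and TTR from common knowledge, and neighbouring genes from their order on GRCh38. Other genes of both pathways were not analysed here, as gene models of hg19 were not used. Named regions were those within 1 kb of a 5′ end, the 2 per window with the most summit reads over 6 libraries, and those of a class; others were added after their values were seen. Genes and lists were chosen with earlier results of these data known. The steps were tested on simulated data (Python 3.11.15, numpy 2.4.6, pandas 2.3.3, scipy 1.17.1, matplotlib 3.10.9).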

Additional observations from a re-analysis of the deposited data

How the results depend on the processing

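The alternatives kept peaks of -log10 q 5 or more, or the 8622 strongest peaks of each list, or set one -log10 p threshold (4.31), or removed peaks whose local background exceeded 5 times the library's own, or used other flanks, other rules for regions and starts, or left out each library. Differences are in peaks per library, ARPE-19 minus H7. At equal list length the difference over the 8 windows was -1.67 (11.3 with all peaks). It was -0.667 for TYR, -0.667 for TYRP1, -1.33 for LRAT, 0 for BEST1 and -1 for members with a peak at the 5′ end. Covered bases then differed by 0.293 kb (3.66 kb with all peaks). There were 2 ARPE-19-only regions, 3 H7-only regions and 1 region in all 6 libraries, so the order of the first 2 classes turned. With -log10 q 5 or more the counts were 6 ARPE-19-only, 0 H7-only and 1 in all 6, and TTR was at 0. A flank of 20 kb gave 6.33 peaks and 1.72 kb over the windows, -1.33 for TYR, 0 for RLBP1, 7 ARPE-19-only regions and 1 in all 6. A flank of 100 kb gave 28.0 peaks and 8.38 kb, 5.33 for TTR and 19 ARPE-19-only regions. The gene body alone gave 1 peak and 0.239 kb, -1 for TYR and 0 for DCT, RLBP1, LRAT and TTR. Peaks over 50% of a region left 1 region in all 6, and calls in at least 2 of 3 libraries gave 4 H7-only regions. The settings themselves change the peaks counted; no other cause was tested. Leaving out a library gave 10.0 to 12.8 peaks and 3.24 to 3.95 kb over the windows, 3.67 to 4.33 for RPE65, -0.333 to 1.17 for TYR (lowest without H7 replicate 2), 2.33 to 3.33 for TYRP1, 0 to 1 for DCT (0 without H7 replicate 2 or 3), 1.67 to 2.33 for RLBP1, 0.167 to 1.17 for LRAT and 0.667 to 2.17 for BEST1 (each lowest without ARPE-19 replicate 3), and -0.5 to 0 for TTR (0 without ARPE-19 replicate 3). It gave 11 to 12 ARPE-19-only and 2 to 3 H7-only regions, and a share of list that differed by -0.0395 to -0.0187 percentage points (-0.0281 with all libraries). For log2 ratios at the regions in all 6 libraries, the alternatives were chosen after the data were seen. With each library left out, the ratio ranged from 0.83 to 1.10 at the region 47.3 kb before the RPE65 start. At the LRAT start it ranged from -0.71 to -0.35 (-0.35 without H7 replicate 1).

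Equal replicate numbers did not mark pairs in the labels, and the deviations of same-numbered libraries over 6770 tiles correlated at -0.01, -0.01 and 0.02. With the replicate number as a block, the differences of 4 peaks for RPE65, 2.67 for TYRP1 and 2 for RLBP1 had an exact sign-flip p of 0.25, the smallest that 3 pairs can give; the others were 0.333 for TYR, 0.333 for DCT and -0.333 for TTR (p = 1 each), 0.667 for LRAT (p = 0.75) and 1.67 for BEST1 (p = 0.5).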
